A study of Homo sapiens with 6 samples.

Results

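The microRNAs (miRNAs) described here are encoded by neighbouring clusters on the long arm of human chromosome 19, at 19q13. They are the chromosome 19 miRNA cluster (C19MC) and the miR-371 to miR-373 cluster. Members were chosen by name alone: human probes for miR-498, miR-512, miR-515 to miR-527, miR-1283 and miR-1323 (C19MC) and for miR-371, miR-372 and miR-373, with any letter or arm, unless the name ended in the asterisk that marks a passenger strand. This gave 51 of 1719 human probes, 45 of them C19MC and 6 miR-371 to miR-373. MiRNA levels were measured in HK-2, an established line of human proximal tubule epithelial cells transformed with papillomavirus genes, on single-colour arrays with 1 spot per human probe. The 3 control samples were kept in medium with 0.2% FCS alone, and the 3 treated samples in the same medium with 5 µg/ml aristolochic acid, a plant compound toxic to the proximal tubule whose metabolites bind DNA. Both groups were harvested after 48 h. Whether replicates were separate cultures is not stated, and the p-values below then cover only the spread among these arrays, which may be technical. In such bulk RNA, fewer cells with a miRNA and less of it per cell cannot be told apart.

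C19MC is a large primate-specific cluster, transcribed from the paternal allele and active mainly in placental trophoblast. The miR-371 to miR-373 cluster is best known from human embryonic stem cells and germ cell tumours, and belongs with the stem-cell miR-302 cluster by its seeds. A seed, bases 2 to 8 of a mature miRNA, pairs with target messages, so members with 1 seed can repress overlapping targets. In most adult somatic cells, tubule epithelium included, both clusters are largely silent. The comparison asked which members lay above background in these tubule cells and whether aristolochic acid altered this region.

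The sequences that matter most for the values below come from 1 short site, shown first because it held the 2 members detected on every array. Sequences were taken from the RefSeq miRNA table of build GRCh38.p14, and the arrays name no build of their own. Of 47 member probes with 1 name, 45 were matched to that table, through current names where the array names are older. The sequences of the probes themselves were not used here. Capitals mark the seed.
miR-371-5p: aCUCAAACugugggggcacu
miR-371b-3p: aAGUGCCCccacaguuugagugc
miR-371-3p: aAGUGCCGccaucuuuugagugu
miR-371b-5p: aCUCAAAAgauggcggcacuuu
MiR-371-5p (now miR-371a-5p) lies at chr19:53787680-53787699 on the plus strand, and miR-371b-3p at chr19:53787678-53787700 on the minus strand. The whole of miR-371-5p, 20 bases, is complementary to miR-371b-3p. The other arms, miR-371-3p on the plus strand and miR-371b-5p on the minus strand, overlap by 21 bases that are complementary throughout.

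The second set shows some of the other members beside the stem-cell and growth-promoting seeds. It does not hold all the members with detection.
miR-512-3p: aAGUGCUGucauagcugagguc
miR-519d: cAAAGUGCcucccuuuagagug
miR-372: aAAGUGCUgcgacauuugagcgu
miR-373: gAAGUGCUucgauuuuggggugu
miR-520a-3p: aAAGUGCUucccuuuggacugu
miR-302a: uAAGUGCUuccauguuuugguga
miR-17: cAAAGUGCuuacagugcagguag
The run AAGUGC lies within the first 8 bases of all 7. This follows from which members are shown and is not a trait of the detected members in general. MiR-526b, miR-518b and miR-517b, each detected on 3 arrays, lack it there and carry other seeds. MiR-372, miR-373 and miR-520a-3p carry the seed AAGUGCU, which is also that of miR-302a on chromosome 4. MiR-519d carries AAAGUGC, the seed of miR-17, a member of a cluster that promotes proliferation. Outside the seed they part: miR-519d matched miR-17 at 5 of 14 bases after base 8.

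Spots were called detected where the authors had kept a background-subtracted intensity, and all human spots above the lowest kept value of an array had been kept. The subtracted background ranged from 50.6 to 51.8 in control and from 53.3 to 61.8 in treated samples, and the lowest kept values lay 2.33 to 3.42 and 3.85 to 4.96 intensity units above it. The groups did not overlap in either measure, so array differences and treatment cannot be told apart. The total intensity over background of detected human probes was 80088 to 101940 on the control and 108515 to 120739 on the treated arrays. The number of arrays limits the precision. The epithelial markers miR-205 and miR-200c and 4 of 5 proximal tubule markers (miR-192, miR-194, miR-215 and miR-30a) were detected on all 6 arrays, and miR-204, the fifth, on 2 control arrays and no treated array. The third epithelial marker, miR-141, was missed on control replicate 3 alone.

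Few of the C19MC and miR-371 to miR-373 probes were regularly detected in these tubule cells. Of the 51 members, 20 were detected on no array, 15 on 1, 8 on 2, 4 on 3, none on 4, 2 on 5 and 2 on all 6. Only miR-371-5p, miR-371b-3p, miR-512-3p and miR-519d were detected on all 3 arrays of a group, or 7.84% of the members, where 36.4% of all human probes met this rule. The 2 members on all 6 arrays made up 3.92% of the members, against 29.3% of all human probes. By cluster, 2 of 45 C19MC members (4.44%) and 2 of 6 miR-371 to miR-373 members (33.3%) were detected on all 3 arrays of a group. No member of C19MC was detected on all 6 arrays, and 2 of 6 (33.3%) were in the miR-371 to miR-373 cluster. The low shares were thus those of C19MC, and the other cluster, of 6 probes, was near all human probes. Without aristolochic acid replicate 1, 8 of the 51 members met the rule on the remaining arrays, with miR-517b, miR-518b, miR-520a-3p and miR-526b added. Of all human probes, 39.7% met it on those arrays.

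**Figure D1:**
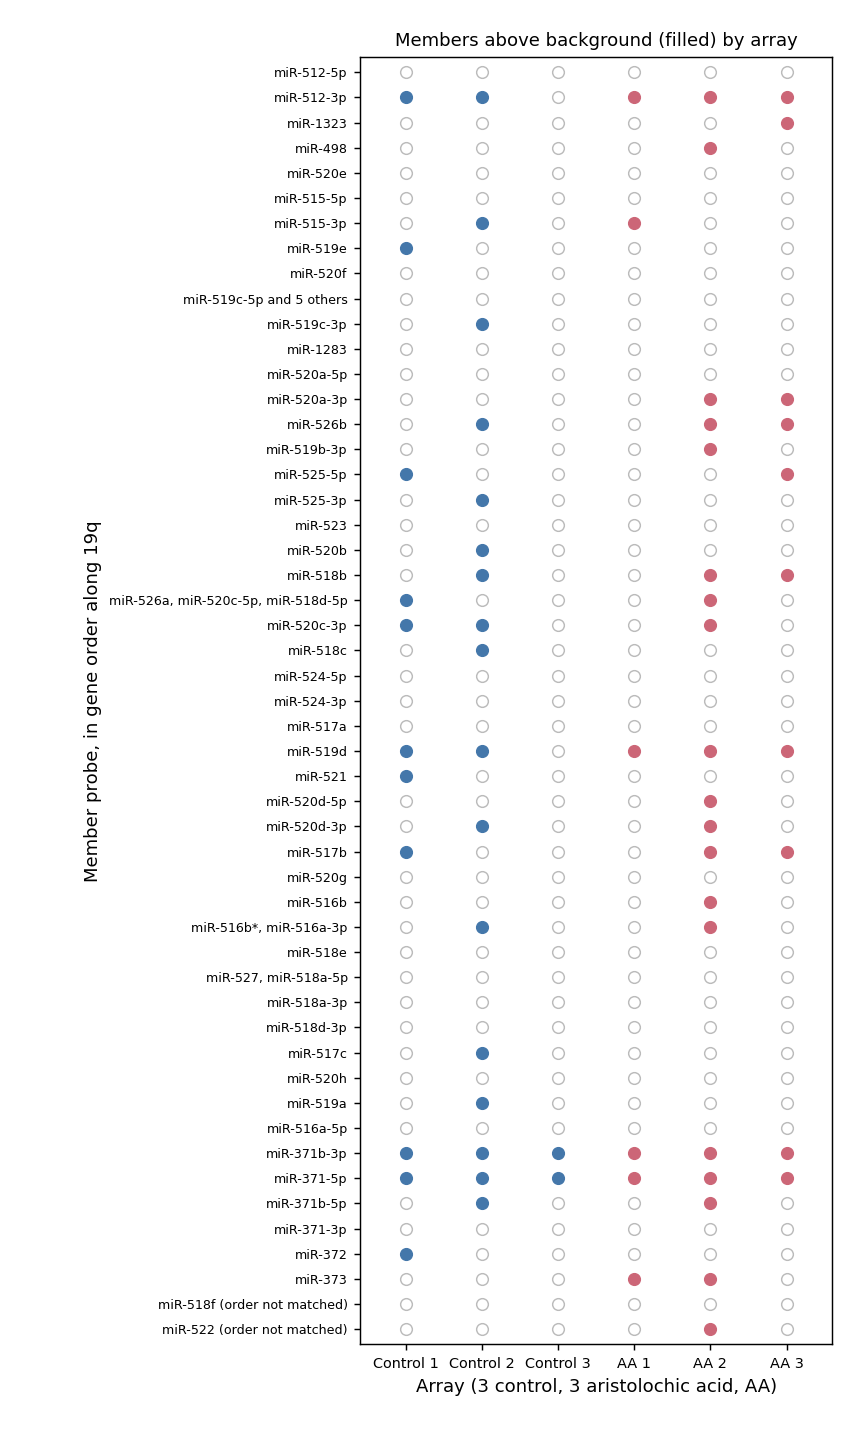
Detection of the 51 member probes (rows, in gene order along 19q by their first annotated copy, with 2 unmatched probes at the bottom) on each of the 6 arrays (columns). A filled circle is a spot whose background-subtracted intensity the authors had kept, and an open circle one without; filled rows across all arrays are seen only for miR-371b-3p and miR-371-5p.

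With both clusters together, the share of member spots that were detected was close to that of negative control spots, which should carry no human miRNA. The members gave 65 detected spots of 306, or 21.2%. C19MC gave 48 of 270 (17.8%) and the miR-371 to miR-373 cluster 17 of 36 (47.2%). On the same limits, 29 of 144 spots of the negative control probes (20.1%) and 534 of 7488 blank spots (7.13%) lay above the lowest kept value, against 4720 of 10314 spots of human probes (45.8%). By array the members' share ran from 3.92% on control replicate 3 to 37.3% on aristolochic acid replicate 2. That of the negative controls ran from 8.33% on control replicate 3 and aristolochic acid replicate 3 to 41.7% on control replicate 2. Members were above the negative controls on aristolochic acid replicates 2 and 3 and below them on the other 4 arrays. The counts differed more within the groups than between them. Control replicate 2 had 17 detected members among 936 detected human probes, and control replicate 3 had 2 among 644, none of them from C19MC. Aristolochic acid replicate 1 had 6 among 648 and replicate 2 had 19 among 873.

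**Figure D2:**
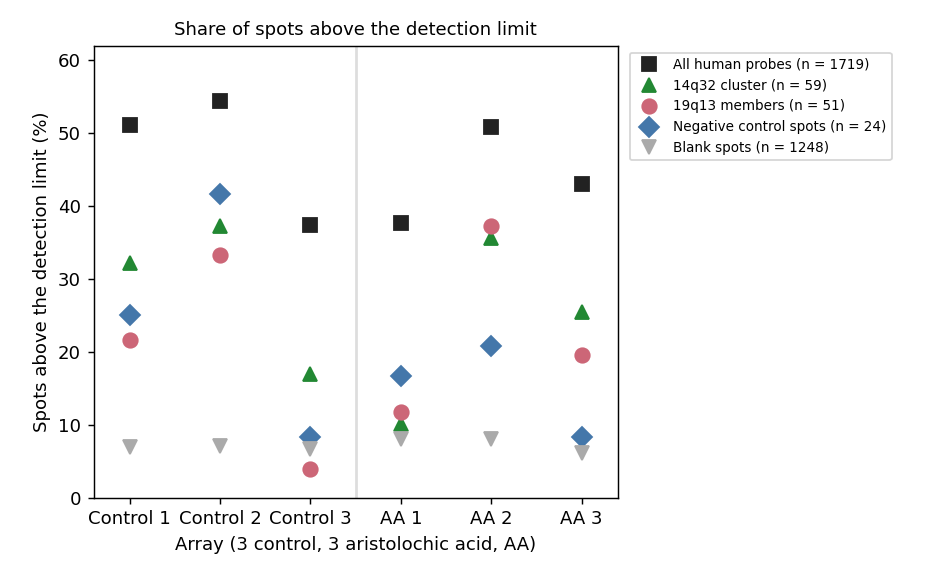
Share of spots above each array's detection limit (percent, linear axis from 0) for all human probes, the 14q32 cluster, the 19q13 members, negative control spots and blank spots. On every array the members lie below all human probes, between 3.92% and 37.3%, and on 4 of 6 arrays below the negative control spots.

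Within the miR-371 to miR-373 cluster, miR-371-5p was the only member well clear of background on every array. Its intensity over background was 18.7, 22.2 and 18.6 on control replicates 1 to 3 and 24.4, 30.1 and 26.3 on aristolochic acid replicates 1 to 3. It lay above the mean of the blank spots plus 3 SD, and above the highest negative control spot, on 6 of 6 arrays. All treated values were above all control values on this scale, before the general brightness of the arrays was taken into account. Scaled so that the median over the 503 human probes detected on all 6 arrays was 25 on each array, miR-371-5p had 28.6, 36.0 and 32.5 in control and 27.8, 32.4 and 31.3 in treated samples, and the groups overlapped.

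MiR-371b-3p, read from the opposite strand of the same site, gave an intensity over background of 7.49, 9.19 and 6.65 in control and 7.64, 8.88 and 10.6 in treated samples. The groups overlapped, and every value was above its array's lowest kept value. It lay above the blank mean plus 3 SD on 4 arrays and above the highest negative control spot on 5. The other 2 arms of this site behaved differently. MiR-371-3p was detected on no array, with -1.76 to 0.223, and miR-371b-5p on 1 control and 1 treated array, with 1.65, 5.94 and 1.27 in control and 1.86, 8.72 and 1.24 in treated samples. Detection at this site was thus seen on all arrays for the overlapping miR-371-5p and miR-371b-3p, and on 2 arrays at most for the other overlapping arms.

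MiR-372 and miR-373, which repress the Hippo pathway kinase LATS2 in germ cell tumours, had no regular signal. MiR-372 gave 4.07, 0.126 and -0.0956 in control and 0.861, 1.34 and -4.40 in treated samples, and only the first of these was detected. MiR-373 gave 1.45, 0.247 and 1.14 in control and 8.21, 4.26 and 1.69 in treated samples, with detection on aristolochic acid replicates 1 and 2. The treated values of miR-373 were all above the control values in intensity over background (exact permutation p = 0.1, 2-sided, the smallest that 3 against 3 allows), and overlapped after scaling (exact permutation p = 0.2).

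In C19MC, 2 of 45 members entered the test, both only through detection on all treated arrays, so a higher treated value was favoured by the filter. MiR-512-3p, from the hairpins at the start of the cluster (2 copies in RefSeq, the first at chr19:53666729-53666750), had 6.61, 4.10 and 2.94 over background in control and 12.2, 5.06 and 9.39 in treated samples. It was missed on control replicate 3 alone, and the groups overlapped because aristolochic acid replicate 2 lay below control replicate 1. MiR-519d, at chr19:53713400-53713421 on the plus strand, had 4.05, 4.89 and 1.28 in control and 7.37, 6.46 and 7.40 in treated samples. The treated values lay above the control values, and control replicate 3 was again the array without detection. Neither was clear of background throughout: miR-512-3p exceeded the blank mean plus 3 SD on 3 arrays and miR-519d on none. Over the highest negative control spot they lay on 3 and 4 arrays.

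**Figure D3:**
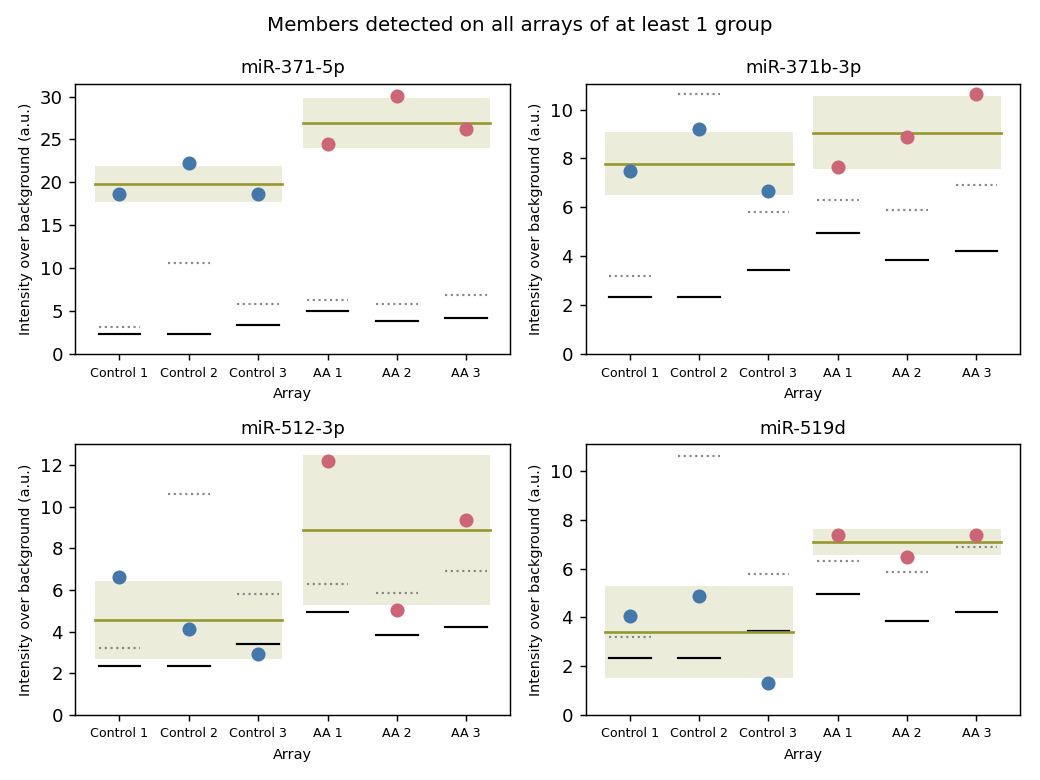
Intensity over background (arbitrary units, linear axis from 0) of the 4 members detected on all arrays of a group, 1 point per array, blue for control and red for aristolochic acid (AA). Horizontal bands are the group mean ± SD (n = 3), solid ticks the lowest kept value of each array and dotted ticks its highest negative control spot; miR-371-5p alone, at 18.6 to 30.1, lies above both ticks on all 6 arrays.

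The other 27 members with any detection were seen on 1 to 3 arrays each, and 12 of them on 2 or 3. The 10 with the most arrays are given here, with ties resolved by the mean intensity over background, which left out miR-515-3p and miR-520d-3p, each on 1 control and 1 treated array. MiR-526b had intensities over background of 2.11, 3.11 and 2.80 in control and 0.802, 6.47 and 4.23 in treated samples. MiR-518b had -0.0293, 7.08 and -0.658 in control and 0.842, 6.03 and 5.06 in treated samples. MiR-517b had 3.25, -1.58 and 2.86 in control and 0.270, 5.54 and 5.27 in treated samples. In these 3, the detected arrays were 1 control array and aristolochic acid replicates 2 and 3, while aristolochic acid replicate 1 lay within 1 unit of background.

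MiR-520c-3p, a carrier of the AAGUGCU seed, was detected on 2 control arrays and 1 treated array, with 2.40, 4.93 and 0.853 in control and 1.73, 4.71 and 0.313 in treated samples. MiR-520a-3p, with the same seed, was detected on aristolochic acid replicates 2 and 3 alone, with 1.38, 1.58 and 1.77 in control and 2.66, 7.49 and 4.44 in treated samples. Its treated values were all above its control values (exact permutation p = 0.1), but overlapped after scaling (exact permutation p = 0.2). MiR-525-5p was detected on 1 array of each group and had 3.32, 2.16 and 3.05 in control and 3.13, 2.62 and 4.82 in treated samples, and the groups overlapped in part.

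The remaining 2 of the 10, beside miR-371b-5p and miR-373 above, were probes with several names, whose RNAs share a sequence and cannot be told apart. The probe for miR-516b* and miR-516a-3p had -0.653, 4.63 and 1.42 in control and 1.94, 6.04 and 3.14 in treated samples. The probe for miR-526a, miR-520c-5p and miR-518d-5p had 2.95, 1.59 and 0.644 in control and 1.29, 4.33 and 2.32 in treated samples. Each was detected on 1 control array and on aristolochic acid replicate 2. Over the whole cluster, C19MC gave 22 detected spots of 135 (16.3%) in control and 26 of 135 (19.3%) in treated samples, where all human probes gave 47.7% and 43.8%. Of the 51 members, 10 were detected on more control arrays, 13 on more treated arrays and 8 on as many of each. Over all 1719 human probes, 353 were detected on more control arrays and 209 on more treated arrays. The difference between the members and all probes was not tested.

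The 20 members without detection included both arms of miR-524, the 5p arms of miR-512, miR-515, miR-516a and miR-520a, miR-517a, miR-520e, miR-520f, miR-520g, miR-520h and miR-1283. Their intensities over background ran from -5.10 to 3.69 with a median of 0.349. On these arrays such a value says that a level was not detectable over the blank spots, not that the RNA was absent.

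Probes with nearly the same target in the current RefSeq table did not give the same detection. MiR-517a and miR-517b have mature sequences that differ by 0 bases. Their probes were detected on 0 and 3 arrays of 6, and miR-517a gave -1.24, -1.81 and 0.818 in control and -1.96, 0.0485 and 0.528 in treated samples. Likewise miR-520b and miR-520c-3p differ by 1 base and were detected on 1 and 3 arrays. In all, 13 pairs of members differed by at most 2 bases when compared without gaps from the first base, and involved 13 members.
miR-517a: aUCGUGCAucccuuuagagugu
miR-517b: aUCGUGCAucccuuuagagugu
miR-520b: aAAGUGCUuccuuuuagaggg
miR-520c-3p: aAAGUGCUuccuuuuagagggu
These 4 are shown because an identical or nearly identical RNA was counted as detected on different numbers of arrays. The sequences the probes were designed on may differ from the current ones, and this was not tested.

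Detection was also set beside sequence features that the choice of members did not use. The 45 matched members with 1 name fell into 27 seeds, 9 of them shared. The largest group, AAGUGCU, held miR-372, miR-373, miR-520a-3p, miR-520b, miR-520c-3p, miR-520d-3p and miR-520e, and gave 11 detected spots, 26.2% of its 42. The 16 members with AAGUGC in their first 8 bases, among them 3 of the 4 tested, had 31 of 96 spots detected (32.3%), and the other 29 had 29 of 174 (16.7%). A GC content of at least 50% was found in 16 members, all 4 tested members among them, with 33.3% of spots detected against 16.1% for the 29 members below it, though 6 of these 16 were detected on no array. Both contrasts rested largely on the 4 tested members. Without them, members with AAGUGC had 15 of 78 spots detected (19.2%) and those without it 23 of 168 (13.7%). For GC content the order turned, with 10 of 72 (13.9%) at 50% or more and 16.1% below. A run of at least 4 G was found in 4 members, miR-371-5p, miR-373, miR-498 and miR-1323. They had 10 of 24 spots detected (41.7%), against 50 of 246 (20.3%) for the 41 members with shorter runs. MiR-371-5p alone gave 6 of these 10 spots, so this contrast too rested largely on a tested member. The run was 5 long in miR-371-5p, detected on 6 arrays, and in miR-498, detected on 1. A part of such runs in the signal was not tested. All these shares are descriptions of a few probes, which share sequence and arrays.

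Treatment with aristolochic acid gave no call in this region. In the limma fit across 625 human probes, 0 of the 4 tested members passed at an adjusted p of 0.05 with Benjamini-Hochberg adjustment, and 0 had an unadjusted p under 0.05. Over all tested probes 0.96% passed (0.8% as higher in treated samples), and 15% had an unadjusted p under 0.05, so a count of 0 among 4 members is near the background. The median log2 difference was 0.014 for the 4 members and -0.011 for all tested probes. The 2 members above 0, miR-512-3p and miR-519d, had entered only through the treated group, which favours a higher treated value. The 2 detected on all 6 arrays were below 0.

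On the fit's scale, log2 intensity after quantile normalization and an offset of 50, which shrinks the differences of dim spots, miR-371-5p differed by -0.019 between treated and control samples (SE 0.041, 95% interval -0.12 to 0.077, limma adjusted p = 0.833). MiR-371b-3p differed by -0.036 (SE 0.031, interval -0.11 to 0.038, limma adjusted p = 0.652). MiR-512-3p differed by 0.048 (SE 0.051, interval -0.072 to 0.17, limma adjusted p = 0.704). MiR-519d differed by 0.048 (SE 0.035, interval -0.036 to 0.13, limma adjusted p = 0.583). All 4 intervals held 0, and each sign turned under at least 1 other scaling: that of miR-371b-3p without normalization, those of miR-512-3p and miR-519d with median scaling, and that of miR-371-5p with both.

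The scaled intensity, which has no offset, gives the sizes that the data still allow. It could be fitted for the 2 members detected on all 6 arrays. MiR-371-5p had 32.4 ± 3.69 in control and 30.5 ± 2.40 in treated samples (SD, n = 3), a fold of 0.943 with a limma 95% interval of 0.736 to 1.21. MiR-371b-3p had 12.7 ± 1.91 and 10.3 ± 2.08, a fold of 0.808 with an interval of 0.592 to 1.10. Both intervals held 1, and the groups overlapped in both members. For miR-512-3p the scaled values were 7.30 ± 2.56 and 10.2 ± 4.32 (exact permutation p = 0.4) and for miR-519d 5.46 ± 2.91 and 8.05 ± 0.978 (exact permutation p = 0.2), each with overlapping groups.

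Without any normalization between arrays, miR-371-5p, and miR-519d, which the filter kept only through the treated group, passed as higher in treated samples, with log2 differences of 0.17 (limma adjusted p = 0.0160) and 0.14 (limma adjusted p = 0.0276), in a fit that called 310 of 625 probes and shifted the median of all tested probes by 0.14. Both differences were thus close to the shift of the median of all tested probes in that fit. Scaling on the spike-in controls moved that median by 0.20 and gave miR-371-5p 0.18 (limma adjusted p = 0.622).

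A fit without the filter on detection gave every member a value. Of 51 members, 24 differences were above 0 and 27 below, from -0.099 to 0.073, with a median of -0.0019 against 0.00014 for all 1719 human probes. No member passed after adjustment in limma, where 0.465% of all human probes did. At an unadjusted p under 0.05 there were 2 members, miR-520e and miR-521, both lower (3.92% of the members, against 8.38% of all human probes).

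Groups without overlap were no more frequent among members than the background, except for the lower side in intensity over background. In intensity over background, miR-371-5p, miR-373, miR-519d, miR-520a-3p, miR-520a-5p and miR-523 had all treated values above all control values. That is 6 of 51 members, or 11.8%, against 21.3% of all human probes, and 2 members lay below (3.92%, against 2.21%). After scaling, 2 lay above (miR-520a-5p and miR-523) and 2 below (miR-520e and miR-521), or 3.92% each, against 5.53% and 7.45% of all human probes. None of these last 4 was detected on more than 1 array. MiR-521, detected on control replicate 1, gave 3.07, 2.31 and 3.11 in control and -0.109, -1.32 and -0.481 in treated samples, and miR-520e gave 1.96, 1.41 and 0.964 against -2.36, -0.670 and -1.52. All treated values of miR-520e and miR-521 lay below background.

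**Figure D4:**
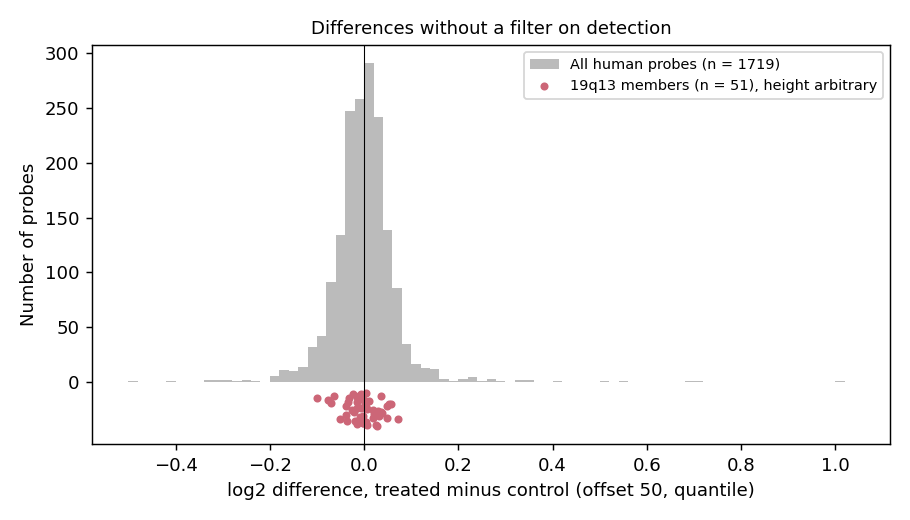
Histogram of log2 differences, treated minus control, for all 1719 human probes in the fit without a filter (grey; x axis in log2 units, y axis in number of probes), with the 51 members as red points under it, whose height has no meaning. The members lie between -0.099 and 0.073, inside the central peak of all probes.

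The passenger strands of the same hairpins were set beside the members. Of 6 such probes, 2 were detected on all 3 arrays of a group. MiR-373*, the partner of miR-373, was the only one of 1719 human probes detected on all 3 treated arrays and on no control array, with intensities over background of 1.68, 2.23 and 2.37 in control and 5.71, 6.96 and 5.33 in treated samples. The opposite pattern, detection on all 3 control arrays and on no treated array, was seen for 5 human probes. MiR-373* was singled out after its values were seen. It entered the fit only through the treated group, so its values are a description. They lay above the highest negative control spot on 1 array, and above the blank mean plus 3 SD on none. MiR-518c* was detected on more control arrays, with 4.83, 4.17 and 5.52 in control and 4.16, 4.96 and 0.830 in treated samples, 3 control arrays and 1 treated array detected. It entered the fit only through the control group.

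Related and neighbouring clusters were measured on the same arrays. In the stem-cell miR-302 and miR-367 cluster, 1 of 7 members, miR-302b, was detected on all 6 arrays (scaled intensity 15.5, 10.01 and 15.1 in control, 10.6, 8.94 and 9.66 in treated samples), and 3 were detected on none. The imprinted 14q32 cluster, which is also active in placenta, had 9 of 59 members detected on all arrays of a group (15.3%), and 20 on none. No test was made of the difference from the 19q13 members. The let-7e, miR-99b and miR-125a cluster, which lies at 19q13.41 just centromeric of C19MC, was detected throughout: all 4 of its probes were present on all 6 arrays, and let-7e had a scaled intensity of 214 to 394 in control and 282 to 354 in treated samples. None of its probes passed the test, with limma adjusted p between 0.235 and 0.844. MiR-935, which lies beyond the miR-371 to miR-373 cluster, was detected on 1 control array and on no treated array. Of markers of other cell types, the blood miRNAs miR-451, miR-144 and miR-223 were detected on 0, 2 and 1 arrays, all of them control arrays. The muscle miRNAs miR-1 and miR-133a were detected on all 6 arrays and the third, miR-206, on 2 control arrays and 1 treated array. Of the neuronal miRNAs, miR-9 was detected on all 6 arrays and miR-124 on none, and the liver marker miR-122 was detected on 1 control and 2 treated arrays. Their part in the results was not tested.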

How the data were processed

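Each sample's total RNA (500 ng) was labelled with Cy5, per the labels' protocols; platform, scanner and software are not given in the sources used here. Per the file headers, the authors deposited spot intensity, background-subtracted intensity and globally normalized intensity for 3136 spots per array, and a coefficient of variation, a ratio over control spots, which was not used. The series' value table held the same globally normalized intensity. The members, lists and tests were chosen with earlier results of these data known.

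The background of the raw intensity was corrected on all spots (normexp, offset 50), control spots were left out, and the 1719 human probes were quantile normalized. The test, limma 3.58.1 (R 4.3.3) with a group term alone, ran on 625 probes, those with detection on all 3 arrays of a group. Exact permutation tests were 2-sided. The steps were tested on simulated data. Every member detected on all arrays of a group is named with its values, and of the others the 10 detected on most arrays (ties by mean intensity over background). Alternatives changed the scaling, background correction, filter, variance model, weights, block, threshold and detection limit, and left out each array. What the replicate numbers mark is not stated, so the main fit used no pairing. Deviations of same-numbered arrays from their group means correlated at -0.14, -0.18 and 0.0077. Those of differently numbered arrays correlated at -0.0999 to 0.210. With 3 arrays per group, these values cannot decide whether the numbers mark a pairing.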

Additional observations from a re-analysis of the deposited data

How the results depend on the processing

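The count of members called was 0 in the main fit and in 19 of 20 alternatives, and 2 without normalization (miR-371-5p and miR-519d). Leaving out 1 array gave 0 to 0, and the fit with the replicate block gave 0, with 4 human probes called in place of 6. The count of members detected on all arrays of a group was 4, with 3 above the highest negative control spot and 1 (miR-371-5p) above the blank mean plus 3 SD. Of all human probes, 36.4%, 27.0% and 24.3% met these rules, in the same order. Leaving out 1 array gave 4 to 8, the 8 without aristolochic acid replicate 1, beside 36.9% to 43.9% of all human probes. The sign of miR-371-5p turned with median scaling (0.019), the 75th percentile (0.060), no normalization (0.17), the spike-ins (0.18), and without control replicate 2 (0.0036) or aristolochic acid replicate 1 (0.0029; from -0.047 to 0.0036 over the 6 fits without 1 array), that of miR-371b-3p without normalization (0.075), and those of miR-512-3p (-0.0024) and miR-519d (-0.013) with median scaling. Adjusted p ran from 0.0160 to 0.987 for miR-371-5p, 0.123 to 0.937 for miR-371b-3p, 0.0630 to 0.983 for miR-512-3p and 0.0276 to 0.847 for miR-519d. The spike-in, scaled and authors' values covered only the 2 members detected on all 6 arrays. The cause of these shifts was not tested. Signals within a few units of the blank spots limit what can be seen of this region.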
